A study of Mus musculus with 6 samples.

Results

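The nuclear genes for the subunits of oxidative phosphorylation were followed in retinas of mice without Wfs1 and of WT mice. The set was chosen by gene name and held 84 of the 55376 genes in the table of read counts. Names of Nduf, then a, b, c, s or v, then only a number were taken, so that Ndufab1 and the Ndufaf genes were not. Sdha to Sdhd and names beginning Uqcr, Cox4 to Cox8 and Atp5 were also taken, with pseudogene names ending in -ps left out. By name, 36 genes belonged to complex I, 4 to complex II, 8 to complex III, 19 to complex IV and 17 to complex V. Of these, 82 are protein coding in the GENCODE M21 annotation, 1 (Cox6c2) is a processed pseudogene there, and 1 (Atp5md) was not found in it by that name. Ndufa4 carries a complex I name but is known as a subunit of complex IV. It is counted in complex I by its name unless stated.

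Total RNA of whole retinas was sequenced from 3 WT and 3 Wfs1-KO mice at postnatal day 240, and all comparisons are between these groups. The Wfs1-KO mice (genotype Wfs1-/-) carry a germline deletion of exon 8 of Wfs1, the gene of an endoplasmic reticulum membrane protein mutated in Wolfram syndrome, and the WT mice carry no targeted allele. The labels give the strain of both groups as C57x129, while the study's methods name a C57BL/6 J background. A whole retina mixes rods, cones, other neurons, glia and vessels, so that fewer cells of a type and less RNA per cell cannot be told apart.

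Oxidative phosphorylation takes place in the inner mitochondrial membrane. Complexes I and II pass electrons from NADH and succinate to ubiquinone, complex III passes them on to cytochrome c, and complex IV to oxygen, while complex V, the ATP synthase, uses the proton gradient built on the way. Photoreceptors pack mitochondria into their inner segments, and the retina is known for a high rate of energy use. A few core subunits of complexes I, III, IV and V are encoded in mitochondrial DNA, and all others, among them the whole of complex II, in the nucleus.

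The libraries held between 17916885 and 101334381 counts, and 3 counts corresponded to between 0.0296 and 0.167 CPM (the usual library-scaled counts, here with TMM factors). Wfs1 (chromosome 5) was at 64.9, 61.3 and 69.9 CPM in WT replicates 1, 2 and 3 and at 9.62, 0.898 and 11.5 CPM in the mutant replicates. Defining rod genes were abundant in all retinas, with a summed level between 50605 and 72941 CPM. Wfs1-KO replicate 2 stood apart from the other 5 retinas, and WT replicate 1 stood apart from the remaining ones for these genes, so results are also given without the first, and the counts and medians of the members without both.

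In WT retina the tested members spanned from 1.05 to 723 RPKM. Levels of different genes were compared as RPKM, that is, CPM per kilobase of the exon length in the deposited table. That length equals the exon length in GENCODE M21 for 22 members only, so RPKM and the order of genes depend on the annotation. Atp5b has 1916 deposited exon bases and 4237 in M21, and Cox8a 550 and 619. On the deposited lengths Atp5b, the catalytic beta subunit of the F1 part of complex V, had the highest level at 723 ± 78.1 RPKM (SD, n = 3). Ndufa4 followed at 458 ± 76.0 RPKM, Cox8a, a small complex IV subunit, at 380 ± 56.5 RPKM and Cox4i1, the ubiquitous isoform of subunit 4, at 372 ± 80.9 RPKM (SD, n = 3 each). The intervals of these 3 genes overlap, but they ignore that the genes were measured in the same 3 retinas. The overlap therefore does not settle their order. The other genes among the 2 highest of their complex were Atp5g3, a c subunit of the membrane ring of complex V, at 295 ± 42.6 RPKM, Uqcrh, the hinge protein of complex III, at 220 ± 26.9 RPKM, Ndufb11, an accessory subunit of complex I, at 144 ± 22.8 RPKM, and Uqcrc1, a core protein of complex III, at 131 ± 22.7 RPKM (SD, n = 3 each). By complex, the median level was 67.7 RPKM for complex I, 51.0 for complex II, 119 for complex III, 92.5 for complex IV and 108 for complex V. In complex II the flavoprotein subunit gene Sdha, at 159 RPKM, was above the iron-sulfur subunit gene Sdhb at 57.6 RPKM and the membrane anchor genes Sdhd at 44.3 RPKM and Sdhc at 36.0 RPKM. The lowest tested members were Cox6c2 at 1.05 RPKM and Cox8b at 1.28 RPKM. The low value of Ndufb2, 6.92 RPKM, was set against an exon length of 4375 bases in the table, where the median member has 971.

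**Figure D1:**
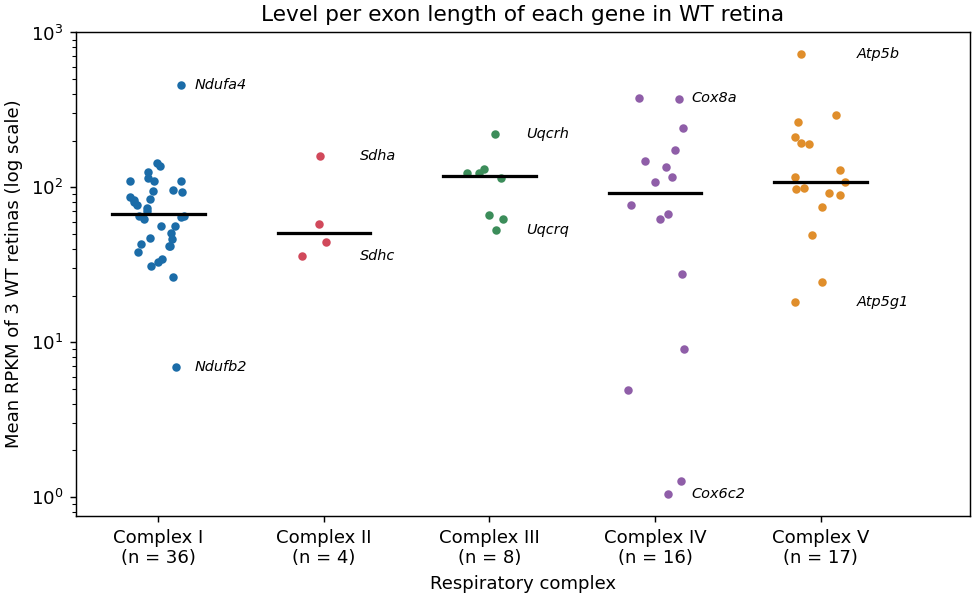
Mean level of each tested gene in the 3 WT retinas (RPKM, log scale), by respiratory complex, with 1 point per gene, horizontal bars at the median of each complex (67.7, 51.0, 119, 92.5 and 108 RPKM), and the highest and lowest gene of each complex named. The points of complex IV reach lowest, down to Cox6c2 at 1.05 RPKM, which is annotated as a pseudogene, and Cox8b at 1.28 RPKM.

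Several subunits of complex IV exist as pairs of isoforms, 1 used widely and the other known mainly from muscle, lung or testis. In the retina the widely used gene prevailed in every pair. Per deposited exon length, Cox4i1 was 13.5 times as abundant as Cox4i2 in WT retinas and Cox6b1 19.5 times as abundant as Cox6b2. In the same way Cox7a2 was 27.8 times as abundant as Cox7a1, and Cox8a 299 times as abundant as Cox8b. The size of these ratios depends on the annotation. Cox4i1 has 765 deposited exon bases and 1550 in GENCODE M21, while Cox4i2 has 788 in both. Cox6a2 had at most 15 counts in any retina and Cox7b2 at most 6, and Cox8c had 0 counts in each of the 6 retinas, so that these 3 genes did not pass the filter on low counts and were not tested. The pair ratios were compared between genotypes by a 2-sided exact permutation test over the 20 relabellings of the 6 retinas, in which the smallest possible p is 0.1. The log2 ratio of Cox7a1 to Cox7a2 was -4.65, -4.91 and -4.83 in WT and -4.23, -3.45 and -4.59 in mutant replicates 1, 2 and 3. All 3 mutant values lay above the 3 WT values, by a difference in means of 0.71 (exact permutation p = 0.1, 0.4 after Benjamini-Hochberg adjustment over the 4 pairs tested), and of 0.39 without Wfs1-KO replicate 2. The differences of the other pairs were 0.14 for Cox4i2 to Cox4i1 (exact permutation p = 0.7), 0.30 for Cox6b2 to Cox6b1 (exact permutation p = 0.3) and 0.84 for Cox8b to Cox8a (exact permutation p = 0.8). Adjusted over the 4 pairs, these exact permutation p-values were 0.8, 0.6 and 0.8. Without Wfs1-KO replicate 2 the Cox8b to Cox8a difference was -0.19, the Cox4i2 to Cox4i1 difference -0.03 and the Cox6b2 to Cox6b1 difference 0.16, and Cox8b rested on between 8 and 250 counts per retina.

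The 2 genotypes were first compared on all 6 retinas with edgeR's quasi-likelihood test over the 18547 genes that passed the filter, among them 81 members. None of the 81 members passed an adjusted p of 0.05 (0 of 81, against 0.0108% of all genes tested). At an unadjusted p under 0.05, 0 members were higher and 0 lower in Wfs1-KO, where 2.24% and 0.566% of all genes were. With DESeq2, 0 members passed (0.28% of all genes), while at an unadjusted p under 0.05 Cox7a1 was higher (3.16% of all genes) and 0 were lower (0.863%). Of the members 73 had a log2 fold change above 0, as did 52.8% of all genes, and 8 below, against 47.2%. The 8 were Ndufs1, Ndufa9, Ndufb2, Sdha, Sdhd, Uqcrc2, Atp5a1 and Atp5b. The median log2 fold change was 0.49 for the members and 0.02 for all genes. By complex it was 0.49 for complex I, 0.01 for complex II, 0.47 for complex III, 0.62 for complex IV and 0.48 for complex V. With Ndufa4 counted in complex IV, it was 0.49 for complex I and 0.58 for complex IV. Cox7a1, a muscle isoform, had 3.33, 2.37 and 2.16 CPM in WT and 3.56, 17.1 and 2.97 CPM in mutant replicates, so that replicate 2 stood far above the rest and the others overlapped. Its log2 fold change was 1.58 (standard error 0.68, edgeR adjusted p = 0.979), and 0.30 without that retina (standard error 0.27). The genotypes overlapped for each of the 81 members, whereas 5.01% of all genes were higher and 3.95% lower in all mutant retinas.

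The medians above 0 rested on a single retina. Wfs1-KO replicate 2 had the highest level of the 6 retinas for 75 of the 81 tested members, which it had for 38.4% of all genes, and for 44 members its level was at least 2 times that of the next highest retina, against 9.8% of all genes. The summed level of the members was 11070, 9134 and 8882 CPM in WT replicates 1, 2 and 3, and 8729, 19019 and 8533 CPM in mutant replicates 1, 2 and 3. On the scale of log2(CPM + 0.5) minus the mean of the WT retinas, the median member was at 1.29 in Wfs1-KO replicate 2 and between -0.21 and 0.24 in the other 5. Complex II was the exception in size, with a median of 0.34 in that retina, against 1.29 for complex I, 1.34 for complex III, 1.42 for complex IV and 1.47 for complex V. Its 4 genes are also longer, with a median of 2065.5 exon bases. The medians of complexes I, III, IV and V are 977, 955, 700 and 1115 bases. An offset for the exon length trend of each library was also fitted on all 6 retinas. The median log2 fold change was then 0.12, -0.08, 0.03, 0.21 and 0.12 for complexes I, II, III, IV and V. Beyond this offset, the part of exon length in the difference of complex II was not tested.

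**Figure D2:**
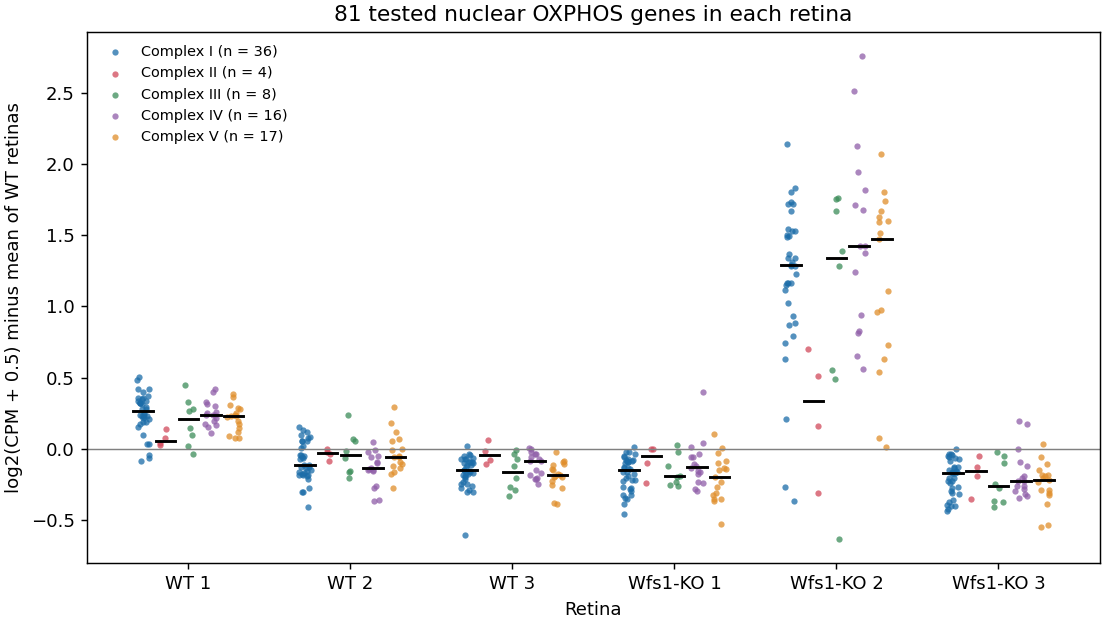
Level of the 81 tested genes in each retina as log2(CPM + 0.5) minus the mean of the 3 WT retinas, with 1 point per gene, coloured by complex, and black bars at the median of each complex. The points of Wfs1-KO replicate 2 reach far above 0 for complexes I, III, IV and V, while the other 2 mutant retinas lie mostly below 0 and WT replicate 1 mostly above.

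The 4 members lowest in Wfs1-KO replicate 2 were Ndufs1, Ndufb2, Uqcrc2 and Sdha (36.9% of all genes were lowest there), and they are named because of these values. Uqcrc2, a core protein of complex III, had 123, 132 and 123 CPM in WT replicates and 116, 81.4 and 124 CPM in mutant replicates. Sdha had 470, 436 and 481 CPM in WT and 461, 374 and 447 CPM in mutant replicates. In both genes mutant replicates 1 and 3 were close to the WT range, and replicate 2 was below it. Atp5e, the epsilon subunit of F1, was instead far above the WT range in replicate 2. It had 99.6, 77.4 and 67.4 CPM in WT and 62.4, 339 and 54.9 CPM in mutant replicates. Cox8b, a muscle isoform, was furthest above the others in that retina, at 9.35 times the next highest level, from a low base (0.632, 0.294 and 0.454 CPM in WT and 0.349, 5.91 and 0.295 CPM in mutant replicates).

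The difference of that retina went with exon length, in length classes chosen after the values were seen. Members are short, with a median of 971 exon bases against 2972 for all genes tested. In Wfs1-KO replicate 2 the median deviation from WT was 1.45 for the 42 members under 1000 bases, 1.11 for the 29 members from 1000 to 2000 bases and 0.65 for the 10 longer ones. Over all genes the same medians were 0.52, 0.50 and -0.16, so that members were higher than all genes of their length class. The Spearman correlation with exon length was computed for the deviation of each retina from the mean of all the others, not from WT. In Wfs1-KO replicate 2 it was -0.43 over the 18547 genes and -0.47 over the 81 members, and these points share 1 library. In WT replicate 1 it was -0.24 over all genes and -0.09 over the members. For all genes it was between 0.31 and 0.37 in the other 4 retinas. The means for all retinas but Wfs1-KO replicate 2 include that retina, so their values partly follow from it. With an offset for the exon length trend of each library, the median log2 fold change of the members on all 6 retinas was 0.12, with 55 above 0 and 26 below (49.7% and 50.3% of all genes). At an unadjusted p under 0.05 Cox7a1 was then higher (2.38% of all genes) and Sdhd lower (0.965%).

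**Figure D3:**
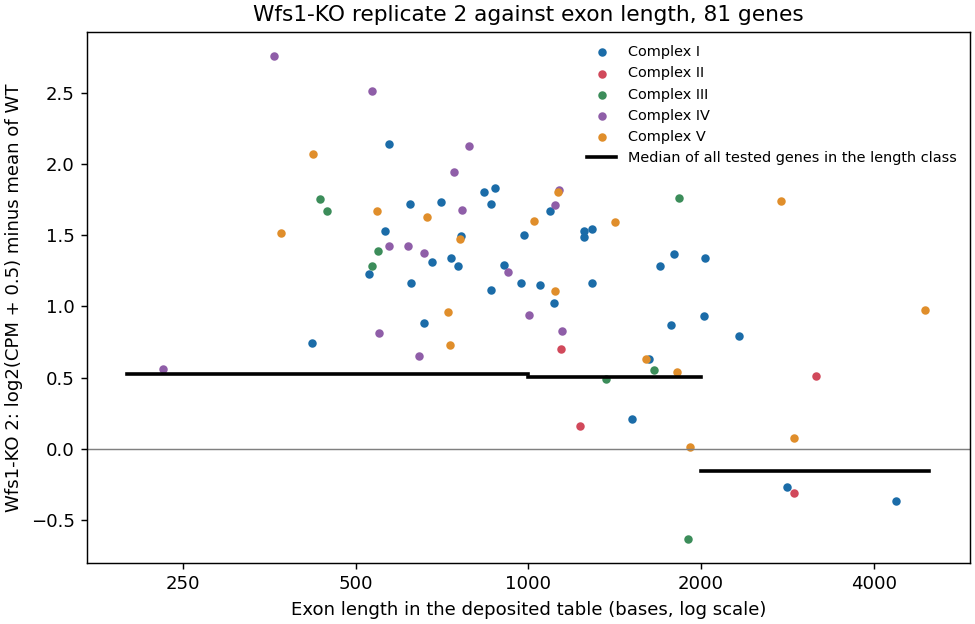
Deviation of Wfs1-KO replicate 2 from the mean of the WT retinas (log2(CPM + 0.5)) against the exon length of each of the 81 tested genes (bases, log scale), with 1 point per gene coloured by complex and black lines at the median of all tested genes under 1000 bases, from 1000 to 2000 and above (0.52, 0.50 and -0.16). Most points lie above the line of their class, and the 4 below 0 are Ndufs1, Ndufb2, Uqcrc2 and Sdha.

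Summed levels of marker genes also stood apart in that retina. Blood genes (5 listed) summed to 479 CPM there, against 12.3 to 41.1 CPM in the other 5 retinas, microglia genes (5 listed) to 182 CPM against 24.0 to 34.8, pigment epithelium genes (6 listed) to 380 CPM against 46.2 to 157, and Müller glia genes (5 listed) to 6519 CPM against 3901 to 5157. Rod genes (7 listed) summed to 50605 CPM there and to between 64816 and 72941 CPM in the other 5. Cone genes (6 listed) summed to 1258 CPM against 1001 to 1183, ganglion cell genes (6 listed) to 1076 CPM against 711 to 940, pericyte genes (5 listed) to 66.9 CPM against 49.4 to 60.8 and lens genes (9 listed) to 3.85 CPM against 1.36 to 3.15. Striated muscle genes (11 listed) summed to 11.6 CPM, against 5.47 to 6.53, with 5 of the 11 highest in that retina and 0 lowest. The muscle markers Myh4 and Tnnc2 were at 0 in all 6 retinas, and Myh1 and Myl1 at 0 in that retina. In that retina 5 of 5 blood genes, 4 of 5 microglia genes, 3 of 6 pigment epithelium genes, 4 of 6 ganglion cell genes, 4 of 9 lens genes and 1 of 6 cone genes were highest of the 6 retinas, while 0, 0, 0, 1, 1 and 0 were lowest. Of the Müller glia genes 2 were highest and 2 lowest, of the pericyte genes 3 and 2, and of the rod genes 2 and 4, so that the members of these lists did not all go one way. Over all genes tested, the shares highest and lowest in that retina were 38.4% and 36.9%. The part of the marker differences in the levels of the members was not tested, nor was that of the exon length trend beyond the offset.

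Without Wfs1-KO replicate 2, the members turned to the other side. In this fit of 3 WT and 2 Wfs1-KO retinas over 19178 genes, 78 of 81 members had a log2 fold change below 0, against 50.1% of all genes, and Cox6a1, Cox7a1 and Atp5g2 were above, against 49.9%. Cox6a1, the widely used isoform of subunit 6a, had 177, 104 and 131 CPM in WT and 138 and 154 CPM in these mutant retinas, within the WT range. The median was -0.20, against -0.00 for all genes, with -0.19 for complex I, -0.11 for complex II, -0.26 for complex III, -0.21 for complex IV and -0.24 for complex V. For 70 members the sign went from above to below 0. Still, 0 of 81 members passed an adjusted p of 0.05 with edgeR (0.125% of all genes) or DESeq2 (0.49%). At an unadjusted p under 0.05, edgeR's test gave 11 members lower, or 13.6%, where 2.39% of all genes were lower, and 0 higher, where 2.8% were, and DESeq2 gave 13 lower (2.41% of all genes) and 0 higher (2.53%). Both mutant retinas were below all WT retinas for 30 members (11% of all genes) and above them for 0 (11.4% of all genes), and of the 30, 12 were in complex I, 2 in complex II, 2 in complex III, 4 in complex IV and 10 in complex V. The 11 genes with an unadjusted p under 0.05 were, grouped by name, Ndufa1, Ndufa3, Ndufa4, Ndufa12 and Ndufb6 of complex I, Sdhd of complex II and Atp5e, Atp5j, Atp5k, Atp5md and Atp5mpl of complex V. Of these, Ndufa4 is known as a subunit of complex IV.

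**Figure D4:**
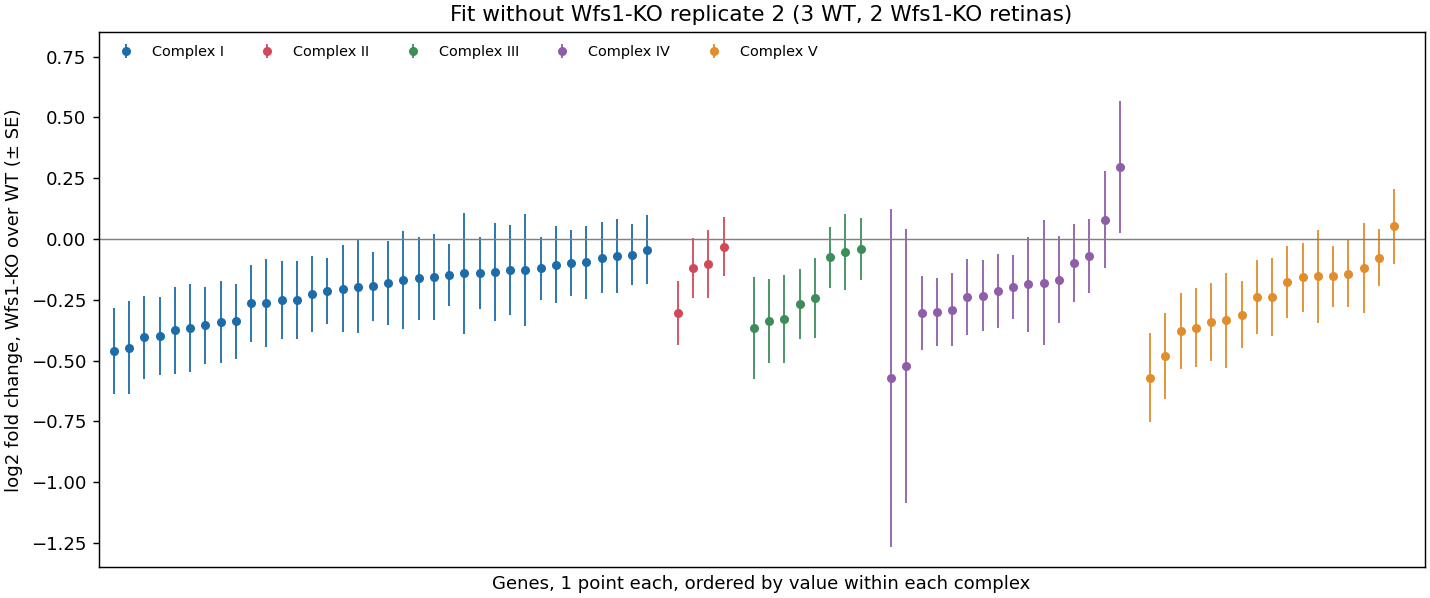
Log2 fold change of each of the 81 tested genes, Wfs1-KO over WT, in edgeR's fit of 3 WT and 2 Wfs1-KO retinas, with error bars of 1 standard error, ordered by value within each complex. Of the points, 78 lie below 0 and 3 (Cox6a1, Cox7a1 and Atp5g2) above.

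The 4 genes with the smallest unadjusted p among those that did not overlap without Wfs1-KO replicate 2 were all small subunits. Atp5k, subunit e of the membrane part of complex V, had 79.4, 78.4 and 53.0 CPM in WT replicates and 47.8, 198 and 47.5 CPM in mutant replicates. Its log2 fold change was -0.57 without Wfs1-KO replicate 2 (standard error 0.18, edgeR adjusted p = 0.673) and 0.48 on all 6 retinas (standard error 0.56, edgeR adjusted p = 0.979). A transcript of the Atp5k-ps2 pseudogene holds a near-identical stretch, so that reads could be shared. For Atp5e the log2 fold change without that retina was -0.48 (standard error 0.18, edgeR adjusted p = 0.800), and 0.90 (standard error 0.68) with it. Ndufa3, an accessory subunit of complex I, had 76.4, 58.9 and 50.5 CPM in WT and 44.3, 177 and 46.3 CPM in mutant replicates, a log2 fold change of -0.46 without Wfs1-KO replicate 2 (standard error 0.18, edgeR adjusted p = 0.828). Ndufb6, another accessory subunit, had 43.3, 32.7 and 36.0 CPM in WT and 29.5, 68.7 and 27.3 CPM in mutant replicates, a log2 fold change of -0.40 (standard error 0.16, edgeR adjusted p = 0.862). That mutant replicates 1 and 3 were below the WT retinas in each of the 4 genes follows from how these were chosen. Replicate 2 was the highest of the 6 retinas in each, as it was for 75 of the 81 tested members and 38.4% of all genes. Smim27 shares 39.0% of the exon bases of Ndufb6, and without strand the reads of both cannot be told apart.

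The letters upstream of these 4 genes are shown because these genes had the smallest unadjusted p among those that did not overlap, and 3 motifs of factors known to act on subunit genes were looked for after the values were seen, on both strands: NRF1 (the palindrome in capitals in the line of Atp5k), an ETS site such as GABP binds (CCGGAAG) and YY1 (AAGATGGCG). Each line gives bases from 150 to 41 before the RefSeq start in GRCm38.p6, 5′ to 3′ on the strand of the gene, with matches in capitals: an ETS match on the opposite strand in Atp5e (chr2:174464142-174464251, minus strand), an NRF1 match in Atp5k (chr5:108434440-108434549, minus strand) and no match in this stretch of Ndufa3 (chr7:3617223-3617332, plus strand) and Ndufb6 (chr4:40279462-40279571, minus strand). The NRF1 match of Atp5k lies at the start of a longer GENCODE transcript.
Atp5e: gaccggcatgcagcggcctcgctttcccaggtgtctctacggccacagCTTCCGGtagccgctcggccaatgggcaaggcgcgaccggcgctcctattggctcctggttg
Atp5k: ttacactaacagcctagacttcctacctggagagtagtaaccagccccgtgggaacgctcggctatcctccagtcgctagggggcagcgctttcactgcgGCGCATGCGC
Ndufa3: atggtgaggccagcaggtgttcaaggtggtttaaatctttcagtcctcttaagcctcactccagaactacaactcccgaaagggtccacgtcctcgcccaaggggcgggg
Ndufb6: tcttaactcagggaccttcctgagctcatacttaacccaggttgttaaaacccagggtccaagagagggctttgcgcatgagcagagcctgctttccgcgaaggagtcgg

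In windows from 250 bases before to 50 after the start, 68 members could be matched to a RefSeq promoter and 16 could not. The NRF1 motif was in 5 of the 68 (7.35%: Atp5g2, Atp5k, Cox6a1, Ndufa11 and Uqcrc1), in 1.07% of all 27025 promoters and in 2.01% of those of tested genes. The ETS motif was in 17 (25%), in 9.93% of all promoters and in 17.2% of those of tested genes. Among the 17 were Atp5e, Atp5k and Ndufb6, with the matches of Atp5k and Ndufb6 outside the letters shown above, while Ndufa3 had no match. The YY1 motif was in 7 (10.3%), against 1.64% and 2.95%. Without Wfs1-KO replicate 2 the 5 members with an NRF1 match had log2 fold changes of 0.08 (Cox6a1), 0.05 (Atp5g2), -0.05 (Uqcrc1), -0.17 (Ndufa11) and -0.57 (Atp5k), on both sides of 0.

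The 4 complex II genes and the core subunits Ndufs1, Ndufv1, Uqcrfs1, Atp5a1 and Atp5b had log2 fold changes between -0.30 and -0.03 without Wfs1-KO replicate 2. Sdhd, a membrane anchor of complex II, had 57.5, 54.4 and 51.7 CPM in WT and 46.0, 61.1 and 42.7 CPM in mutant replicates, a log2 fold change of -0.30 without Wfs1-KO replicate 2 (standard error 0.13, edgeR adjusted p = 0.933). Sdhb had 72.4, 64.0 and 61.0 CPM in WT and 65.5, 107 and 57.6 CPM in mutant replicates, and Sdhc 117, 112 and 113 CPM in WT and 107, 163 and 104 CPM in mutant replicates. Their log2 fold changes without that retina were -0.10 and -0.12 (standard errors 0.14 and 0.12), and that of Sdha was -0.03 (standard error 0.12). Ndufs1, the largest subunit of complex I, had -0.06 (standard error 0.13), Ndufv1, which binds NADH, -0.07 (standard error 0.15), and Uqcrfs1, the Rieske protein of complex III, -0.04 (standard error 0.13). Atp5a1 and Atp5b, the alpha and beta subunits of F1, had -0.08 (standard error 0.12) and -0.15 (standard error 0.13).

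**Figure D5:**
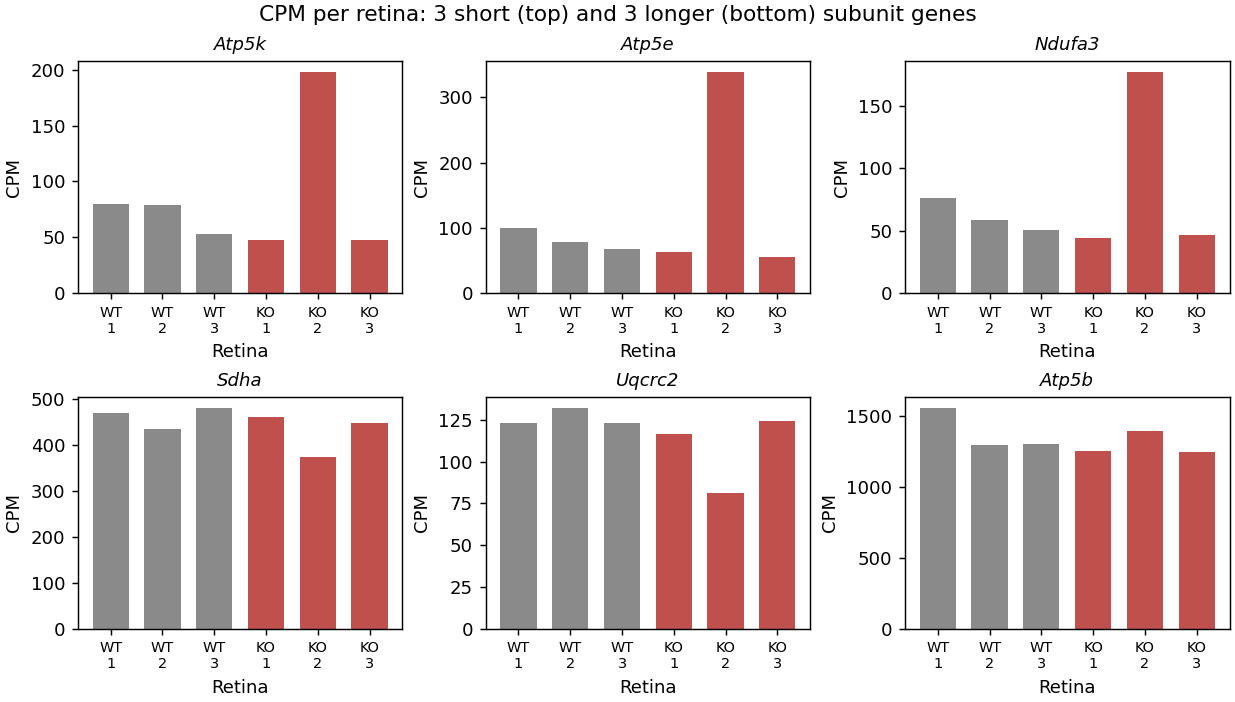
Level in each retina (CPM) of the short genes Atp5k, Atp5e and Ndufa3 and the longer genes Sdha, Uqcrc2 and Atp5b, with grey bars for WT replicates 1 to 3 and red bars for Wfs1-KO (KO) replicates 1 to 3. In the short genes Wfs1-KO replicate 2 towers above the rest (198, 339 and 177 CPM), while in Sdha and Uqcrc2 it is the lowest (374 and 81.4 CPM) and in Atp5b it lies within the WT range (1394 CPM).

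WT replicate 1 set part of the difference in this smaller fit. Among the 5 retinas other than Wfs1-KO replicate 2, it was highest for 70 of 81 members, against 27.1% of all genes. With WT replicate 1 also left out, an alternative chosen after seeing the data, 80 members were tested in 2 retinas a group, with a median log2 fold change of -0.09, 58 below 0 and 22 above (50.1% and 49.9% of all genes). At an unadjusted p under 0.05 there were 7 members lower (3.26% of all genes), Atp5e, Atp5j, Atp5k, Ndufa3, Ndufa12, Ndufb6 and Sdhd, and 1 higher, Cox6a1 (3.38% of all genes). By complex the median was then -0.09 for complex I, -0.06 for complex II, -0.10 for complex III, -0.08 for complex IV and -0.11 for complex V. The log2 fold changes of Atp5k, Atp5e, Ndufa3 and Ndufb6 were -0.47, -0.31, -0.28 and -0.27 (edgeR adjusted p between 0.737 and 0.746), that of Sdhd was -0.26, and that of Ndufv1 turned to 0.07. The isoform ratios were not computed without both retinas. With the exon length offset and without Wfs1-KO replicate 2 alone, the median was -0.13, with 75 members below 0 (51.9% of all genes) and 6 above (48.1%). At an unadjusted p under 0.05, 14 were then lower (2.98% of all genes) and 0 higher (3.21%).

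Subunits, carriers, assembly factors and regulators of the same pathway with other names, among them the 13 subunits encoded in mitochondrial DNA, were also tested. Of 80 listed, 78 were in the table and 73 were tested, and 0 passed an adjusted p of 0.05 with or without Wfs1-KO replicate 2. Their median log2 fold change was 0.01 on all 6 retinas and -0.13 without that retina, where 9 were lower at an unadjusted p under 0.05 (2.39% of all genes) and 0 higher (2.8%). Of the 9, 5 were mitochondrially encoded. With WT replicate 1 also left out the median was -0.11, and 10 were lower (3.26% of all genes) and 0 higher (3.38%), 7 of the 10 mitochondrially encoded. Cycs, the cytochrome c of somatic cells, had 72.6, 71.9 and 61.9 CPM in WT and 54.0, 73.3 and 55.4 CPM in mutant replicates, and a log2 fold change of -0.34 without Wfs1-KO replicate 2 (standard error 0.14, edgeR adjusted p = 0.870). Cyc1, the cytochrome c1 of complex III, had -0.11 (standard error 0.17), and Ndufab1, the acyl carrier protein of complex I, -0.13 (standard error 0.16). The 15 assembly factors of complex I had a median of -0.14 without that retina, with Ndufaf2 and Tmem126b lower at an unadjusted p under 0.05, and those of complexes II, III, IV and V medians of -0.15, -0.20, -0.08 and -0.15 with 0 at that level. The 11 regulators of nuclear subunit genes, from Ppargc1a and Nrf1 to Tfam and Polrmt, had a median of 0.01 and 0 at that level, and Ppargc1a, a transcriptional coactivator, had -0.04 (standard error 0.19).

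Of the 13 subunits encoded in mitochondrial DNA, 10 were tested. Wfs1-KO replicate 2 was the highest retina for 5 of these, against 38.4% of all genes: mt-Nd4, mt-Nd6, mt-Co2, mt-Co3 and mt-Atp6. Of the 5, mt-Co2, mt-Co3 and mt-Atp6 had at most 3.57 CPM in any retina, and they are included in the counts and medians given here. In the same retinas mt-Co1 had between 3708 and 8660 CPM. Whether the low values stand for transcript levels was not tested. Without Wfs1-KO replicate 2, mt-Co2 and mt-Atp6 were the only 2 of the 10 with a log2 fold change above 0. The median log2 fold change of the 10 was -0.19 on all 6 retinas, -0.29 without Wfs1-KO replicate 2 and -0.45 with WT replicate 1 also left out. On all 6, only mt-Nd2, a core subunit of complex I, had an unadjusted p under 0.05 (log2 fold change -0.62, standard error 0.23, edgeR adjusted p = 0.979). Without Wfs1-KO replicate 2, mt-Nd1, mt-Nd2, mt-Nd4, mt-Nd6 and mt-Cytb were lower at that level (2.39% of all genes), by log2 fold changes of -0.32, -0.51, -0.44, -0.67 and -0.44 (edgeR adjusted p between 0.474 and 0.880).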

How the data were processed

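RNA-seq was performed on 3 WT and 3 Wfs1-KO whole retinas. Per the labels and the methods, the authors used Trimmomatic for trimming, STAR for mapping to mm10 and featureCounts for exon counts of each gene, which they deposited as raw counts with no scaling. The labels name Trimmomatic 0.39, STAR 2.5.3a and featureCounts 1.6.4, and the methods later versions of the first 2. The library kit does not mark strand. Columns were matched to samples by a genotype letter and replicate number in their names, and 2 columns with a number that no listed sample has were set aside.

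Genotypes were compared with edgeR 4.0.16 (R 4.3.3) by the quasi-likelihood test on all genes that passed filterByExpr, with TMM factors and genotype as the only term, and Benjamini-Hochberg adjustment over those genes at 0.05. The standard error is the absolute log2 fold change over the square root of F. Alternatives were DESeq2 1.42.0, limma-voom (limma 3.58.1), RLE and upper-quartile factors, other filters, a replicate block, a lowess offset (span 0.5) of log2 counts on exon length in each library, and retinas left out. Isoform ratios used a prior count of 0.5. The fits were tested on simulated counts under more than 1 noise model, and in some simulations the share of false calls was above the nominal rate.

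The members, lists and alternatives were chosen with earlier results of these data known. Named were the isoform pairs, the 2 members with the highest WT RPKM of each complex, up to 6 members each way (4 without Wfs1-KO replicate 2) with the smallest p among those whose genotypes did not overlap, members past the threshold, complex II, Ndufs1, Ndufv1, Uqcrfs1, Atp5a1 and Atp5b, untested members, and Cyc1, Cycs, Ndufab1 and Ppargc1a. Others were named after their values were seen. Of the members, 28 share exon bases with another gene (11 over 10% of them), and 26 have a stretch of at least 100 bases at 95% identity in a transcript of another gene, so that their reads could be split or shared. No 2 libraries were alike within sampling noise. The labels do not state the animal behind each library beyond its number, so p-values measure the spread between these samples. A comparison within complex I is not reported here.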

Additional observations from a re-analysis of the deposited data

How the results depend on the processing

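No member passed an adjusted p of 0.05 under any alternative run, by any of edgeR, DESeq2 and limma-voom. At an unadjusted p under 0.05 the members higher in Wfs1-KO numbered 1 with DESeq2 (3.16% of all genes) and 1 with the exon length offset (2.38%). They numbered 2 with no filter on low counts, where the share of all genes was not computed. Those lower numbered 1 with the exon length offset (0.965% of all genes). Of the pathway genes outside the name rule 2 were at that level with DESeq2 against 1 in the reported fit. With the replicate number as a block the median of the members was 0.28, that of complex II -0.01, and 0 members and 0 of the other pathway genes had an unadjusted p under 0.05. The deviations of same-numbered retinas, each from the mean of its own genotype, correlated at -0.33, -0.17 and 0.17. Since WT replicate 1 and Wfs1-KO replicate 2 shift these means, the correlations cannot decide whether the numbers pair the retinas. With all retinas kept, 8 of 223 values of named members turned sign, all with the exon length offset: Atp5g3 -0.049, Atp5k -0.048, Cox7b -0.058, Cox8a -0.19, Ndufa4 -0.096, Ndufb6 -0.23, Sdhb -0.037 and Uqcrfs1 -0.040.

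Leaving out retinas moved the results most. In the ranges that follow, each retina was left out in turn, and Wfs1-KO replicate 2 also together with WT replicate 1 or with the exon length offset. Members higher at an unadjusted p under 0.05 numbered 0 to 4 (3 without Wfs1-KO replicate 1 and 4 without Wfs1-KO replicate 3). The shares of all genes were not computed in those fits, so these counts have no background beside them. Members lower numbered 0 to 14 (13 with DESeq2 without Wfs1-KO replicate 2, against 2.41% of all genes). Other pathway genes at that level numbered 0 to 10 (9 with DESeq2 without that retina). The median of the members was -0.20 to 0.74, that of complex I -0.19 to 0.74, complex II -0.11 to 0.10, complex III -0.26 to 0.74, complex IV -0.21 to 0.87 and complex V -0.24 to 0.80, with the lowest medians in fits without Wfs1-KO replicate 2. The log2 fold changes that turned sign without Wfs1-KO replicate 2 ranged from the value without it, alike to 2 decimals in edgeR and DESeq2, to the highest value: Atp5e -0.48 to 1.30, Atp5g3 -0.18 to 0.50, Atp5k -0.57 to 0.80, Cox4i1 -0.17 to 1.03, Cox4i2 -0.19 to 1.42, Cox6b1 -0.30 to 0.80, Cox6b2 -0.18 to 1.28, Cox7a2 -0.070 to 0.83, Cox7b -0.24 to 0.47, Cox8a -0.29 to 0.37, Cox8b -0.52 to 2.73, Ndufa3 -0.46 to 0.85, Ndufa4 -0.36 to 0.60, Ndufb11 -0.34 to 0.69, Ndufb6 -0.40 to 0.39, Ndufv1 -0.069 to 0.47, Sdhb -0.10 to 0.39, Sdhc -0.12 to 0.24, Uqcrc1 -0.055 (edgeR -0.054) to 0.32, Uqcrfs1 -0.042 (edgeR -0.041) to 0.28 and Uqcrh -0.27 to 0.79. Those of the other named members ranged as follows: Atp5a1 -0.078 (edgeR -0.077) to 0.019, Atp5b -0.16 to -0.00, Cox6a1 0.08 to 0.90, Cox7a1 0.29 to 1.96, Ndufs1 -0.17 to -0.04, Sdha -0.17 to -0.01 and Sdhd -0.30 to -0.03. The genotype differences of the isoform log2 ratios were Cox4i2 to Cox4i1 -0.031 to 0.27, Cox6b2 to Cox6b1 0.16 to 0.42, Cox7a1 to Cox7a2 0.39 to 0.96 and Cox8b to Cox8a -0.19 to 1.38. The cause of these changes was not tested beyond the exon length offset. At 2 or 3 retinas a group and a common dispersion of 0.128, against 0.0322 without Wfs1-KO replicate 2, log2 fold changes of the size of the medians could not be told from 0 for most members.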
